A study of Mus musculus with 6 samples.

Results

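The 8 genes described here are Dlx1, Dlx2, Dlx5 and Dlx6, the noncoding RNA genes Dlx1as and Dlx6os1, and the LIM homeobox genes Lhx6 and Lhx8. Dlx1as overlaps Dlx1 and Dlx6os1 overlaps Dlx6, both in antisense. They were taken by symbol from the 32285 genes of the deposited matrices, and all 8 were found. RNA and chromatin accessibility of these genes were measured in the same nuclei, and tumor glia and neurons were set side by side. The libraries came from brains of C57BL/6J mice with lesions made by in utero electroporation, in which plasmids are driven into cells of the embryonic brain. Single-nucleus Multiome was used, which gives RNA as unique molecular identifiers (UMIs) and accessible DNA as ATAC counts in peaks. Of the 3 libraries, Foxr2 p53LOF replicate 1 carried Foxr2 overexpression with p53 LoF (loss of function), and Foxr2 alone replicates 1 and 2 carried Foxr2 overexpression only. Foxr2 was thus overexpressed in every library, there was no untreated brain, and the labels give no age. By the methods of the study, plasmids were aimed at the ganglionic eminences, Foxr2 was driven by the ubiquitous CAG promoter from piggyBac vectors, and p53 was targeted with Cas9 and a guide. Any cell of that region could take up plasmid, so a library mixes electroporated cells with host cells. The counts of Foxr2 alone replicate 2 were not analysed here.

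Dlx1, Dlx2, Dlx5 and Dlx6 encode homeobox transcription factors of the ganglionic eminences, the ventral part of the embryonic forebrain, and are needed for GABAergic neurons to differentiate and migrate. They lie in pairs, Dlx1 beside Dlx2 and Dlx5 beside Dlx6, and the DNA between the genes of a pair is known to hold enhancers. Lhx6 acts downstream of Nkx2-1 in the medial ganglionic eminence and marks interneurons born there, and Lhx8 is known for its part in forebrain cholinergic neurons.

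On mm10, the build of the files, Dlx1 (ENSMUSG00000041911) spans chr2:71528113-71533981 on the plus strand and Dlx2 (ENSMUSG00000023391) chr2:71543408-71546754 on the minus strand. Dlx1as (ENSMUSG00000084946) spans chr2:71516454-71537891 on the minus strand and covers Dlx1. Dlx6 (ENSMUSG00000029754) spans chr6:6863334-6868568 on the plus strand, inside Dlx6os1 (ENSMUSG00000090063), which spans chr6:6820189-6871592 on the minus strand. Dlx5 (ENSMUSG00000029755) spans chr6:6877805-6882085, Lhx6 (ENSMUSG00000026890) chr2:36081953-36105408 and Lhx8 (ENSMUSG00000096225) chr3:154306294-154330659, all on the minus strand. Whether reads were counted by strand is not given in the sources used here. RNA of Dlx1 against Dlx1as and of Dlx6 against Dlx6os1 is thus uncertain where these genes overlap. Dlx1as also overlaps Metap1d, a gene on the plus strand, and the same uncertainty holds there.

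Peaks had been called in each library on its own, and 4 peaks beside the paired Dlx genes are shown because classes of nuclei are compared peak by peak there. All 4 lie beyond 2 kb of the start sites of the coding Dlx genes, so the values within 2 kb of those genes do not hold them. The central 300 bases of each are given from GRCm38, the assembly also called mm10, as the plus strand 5′ to 3′ with CpG dinucleotides in capitals. The first peak reaches the 3′ end of Dlx2 and had the highest level of the Dlx1 and Dlx2 locus in tumor glia (peak chr2:71542604-71543485, printed chr2:71542894-71543193, intergenic). The second lies between Dlx1 and Dlx2 and was higher in interneuron-like neurons (peak chr2:71540734-71541696, printed chr2:71541065-71541364, intergenic). The third and the fourth lie between Dlx6 and Dlx5 and were called in Foxr2 alone but not in Foxr2 p53LOF (peak chr6:6870063-6871002, printed chr6:6870382-6870681, in an intron of Dlx6os1, and peak chr6:6873915-6874731, printed chr6:6874173-6874472, intergenic).
At the 3′ end of Dlx2: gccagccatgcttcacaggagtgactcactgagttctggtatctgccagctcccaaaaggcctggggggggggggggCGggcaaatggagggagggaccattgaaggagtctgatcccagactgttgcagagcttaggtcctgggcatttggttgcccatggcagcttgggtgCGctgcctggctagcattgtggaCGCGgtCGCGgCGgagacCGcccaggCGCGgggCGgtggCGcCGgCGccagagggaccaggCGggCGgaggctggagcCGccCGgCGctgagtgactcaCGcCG
Between Dlx1 and Dlx2: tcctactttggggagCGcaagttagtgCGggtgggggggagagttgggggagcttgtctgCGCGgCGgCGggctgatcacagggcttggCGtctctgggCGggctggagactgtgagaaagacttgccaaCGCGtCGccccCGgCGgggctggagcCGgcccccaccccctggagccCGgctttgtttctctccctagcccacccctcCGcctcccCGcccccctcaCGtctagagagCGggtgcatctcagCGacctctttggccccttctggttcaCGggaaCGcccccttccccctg
Between Dlx6 and Dlx5, nearer to Dlx6: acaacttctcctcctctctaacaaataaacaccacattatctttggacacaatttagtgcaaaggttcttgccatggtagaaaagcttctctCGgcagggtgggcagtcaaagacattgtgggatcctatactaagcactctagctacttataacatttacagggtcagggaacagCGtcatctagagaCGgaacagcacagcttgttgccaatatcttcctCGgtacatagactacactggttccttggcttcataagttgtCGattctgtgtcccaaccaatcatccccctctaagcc
Between Dlx6 and Dlx5, nearer to Dlx5: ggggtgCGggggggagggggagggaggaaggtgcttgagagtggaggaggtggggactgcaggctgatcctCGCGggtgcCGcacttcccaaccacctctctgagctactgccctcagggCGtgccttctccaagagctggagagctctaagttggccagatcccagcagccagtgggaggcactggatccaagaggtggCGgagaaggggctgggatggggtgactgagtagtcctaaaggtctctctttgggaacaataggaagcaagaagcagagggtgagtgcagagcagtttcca
The Dlx1 and Dlx2 sequences held 21 and 22 CpG dinucleotides with a GC content of 68.0% and 68.7%. Their ratio of observed to expected CpG was 0.632 and 0.623. The Dlx5 and Dlx6 sequences held 5 and 6 CpG dinucleotides, with ratios of 0.339 and 0.236. A ratio of 0.6 or more was found in the central 300 bases of 14.7% of all peaks of Foxr2 p53LOF and 12.8% of those of Foxr2 alone. As printed, the first pair was thus CpG-rich among peaks and the second was not. The overlapping peak of the other library has a shifted centre, with a ratio of 0.528 at the 3′ end of Dlx2, below 0.6, and 0.711 between Dlx1 and Dlx2. The letters TAATTA, a homeobox core that reads the same on both strands, were in none of the 4 sequences and in 5.30% and 7.504% of all such peak centres. Other Dlx peaks held TAATTA in their centres. In both libraries these were the peak over the start of Dlx2 and the next one (chr2:71547742-71548515 in Foxr2 p53LOF). In Foxr2 alone it was also at chr6:6889929-6890776. RefSeq promoters of 300 bases (GRCm38) were matched for 5 of the 8 genes, Dlx1, Dlx2, Dlx6os1, Lhx6 and Lhx8, with 8 promoters in all. TAATTA was in both promoters of Dlx6os1 and in none of the others, against 5.29% of 32851 promoters. Dlx5, Dlx6 and Dlx1as had no entry.

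The barcodes of Foxr2 p53LOF replicate 1 held 96929539 UMIs and 102529894 ATAC counts, and those of Foxr2 alone replicate 1 59719847 and 118436178. After filtering, 8359 and 8316 nuclei were kept, of which 94 shared a barcode between the libraries. With the counts of 1 library per genotype analysed here, no test of genotype was made. Values are given with exact 95% intervals in brackets, which cover counting error only. RNA levels are CPM, a gene's UMIs per 1000000 UMIs of a class of nuclei, and ATAC levels are ATAC CPM, counts in peaks within 2 kb of a gene's start sites per 1000000 ATAC counts of the class. Clusters were named from markers, and the 8 genes were left out of the clustering. In 2 clusters of Foxr2 p53LOF, astrocyte-like (1241 nuclei) and COP-like (committed oligodendrocyte precursor, 1216 nuclei), 29.7% and 27.1% of nuclei had an ATAC count on an electroporated vector, against 1.29% of immune-like and 0.663% of neuron-like nuclei. These 2457 nuclei are called tumor glia. Foxr2 stood at 81.5 CPM in tumor glia, 27.3 CPM in immune-like and 28.0 CPM in other oligodendrocyte-like nuclei. In neuron-like nuclei it was 11.97 CPM in Foxr2 p53LOF, against 2.57 CPM in Foxr2 alone. Trp53, the p53 gene, stood at 53.9 CPM in tumor glia and 13.7 and 11.4 CPM in the neuron-like nuclei of Foxr2 p53LOF and Foxr2 alone, which does not check the loss of function, because small Cas9 deletions need not lower RNA. No nucleus of a named class of Foxr2 alone had a vector ATAC count, so nuclei were not divided by vector there. Vector RNA was counted in that library, and GFP stood at 151 CPM in astrocyte-like, 98.2 CPM in OPC-like (oligodendrocyte precursor), 58.3 CPM in oligodendrocyte-like, 28.4 CPM in striatal-like, 17.6 CPM in immune-like, 10.2 CPM in interneuron-like and 8.83 CPM in cortical glutamatergic-like nuclei. Foxr2 stood at 19.2, 8.73, 6.36, 3.36, 0, 0.955 and 2.03 CPM in the same order.

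In Foxr2 p53LOF the 4 coding Dlx genes, summed, were more accessible in tumor glia than in the neuron-like nuclei of that library. The difference was carried by Dlx1 and Dlx2, with almost no Dlx RNA in either class. By markers these neurons were mostly Slc17a6 glutamatergic-like (926 nuclei), GABAergic from outside the telencephalon (606) and dopamine-like (329). Of all neuron-like nuclei, 0.663% had a vector count. The coding Dlx genes together had 18 UMIs in 2457 tumor glia (0.788 CPM [0.467, 1.25]) and 16 in 2264 neuron-like nuclei (0.634 CPM [0.363, 1.03]). Immune-like nuclei, which should lack these RNAs, had 4 UMIs (0.635 CPM [0.173, 1.63]), an interval that overlaps those of both classes. Counted as UMIs per nucleus, which does not correct for depth, the log2 ratio of tumor glia to immune-like nuclei was 1.65 [0.04, 3.67]. The median depths of these classes were 7880 and 2692 UMIs, so this value does not set Dlx RNA apart from background. The Dlx start sites held 60.8 [56.9, 65.0] ATAC CPM in tumor glia, 24.8 [21.7, 28.1] in neurons and 25.2 [21.3, 29.5] in immune-like nuclei. The log2 ratio of tumor glia to neuron-like nuclei was 0.31 [-0.74, 1.38] for RNA and 1.30 [1.09, 1.51] for ATAC, and that of tumor glia to immune-like nuclei 0.31 [-1.29, 2.33] and 1.27 [1.02, 1.53]. A Dlx ATAC count was found in 28.5% of tumor glia, 10.3% of neurons and 8.84% of immune-like nuclei, at median depths of 10340, 8903 and 5552 ATAC counts.

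The share of nuclei with a Dlx UMI did not separate the classes. With each nucleus thinned to 1000 UMIs, which left out 81, 1 and 31 shallower nuclei, it was 0.126% [0.0260, 0.369] in tumor glia, 0.133% [0.0273, 0.387] in neurons and 0.0596% [0.00151, 0.332] in immune-like nuclei. Unthinned it was 0.651%, 0.486% and 0.234%, at median depths of 7880, 9924.5 and 2692 UMIs. The thinned intervals overlapped in all 3 classes. Each class was thinned in a single random draw, and the intervals of thinned shares leave out the error of that draw. Dlx2, for example, was found in 3 thinned tumor glia but in 0 nuclei of either tumor cluster, which were drawn apart.

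**Figure D1:**
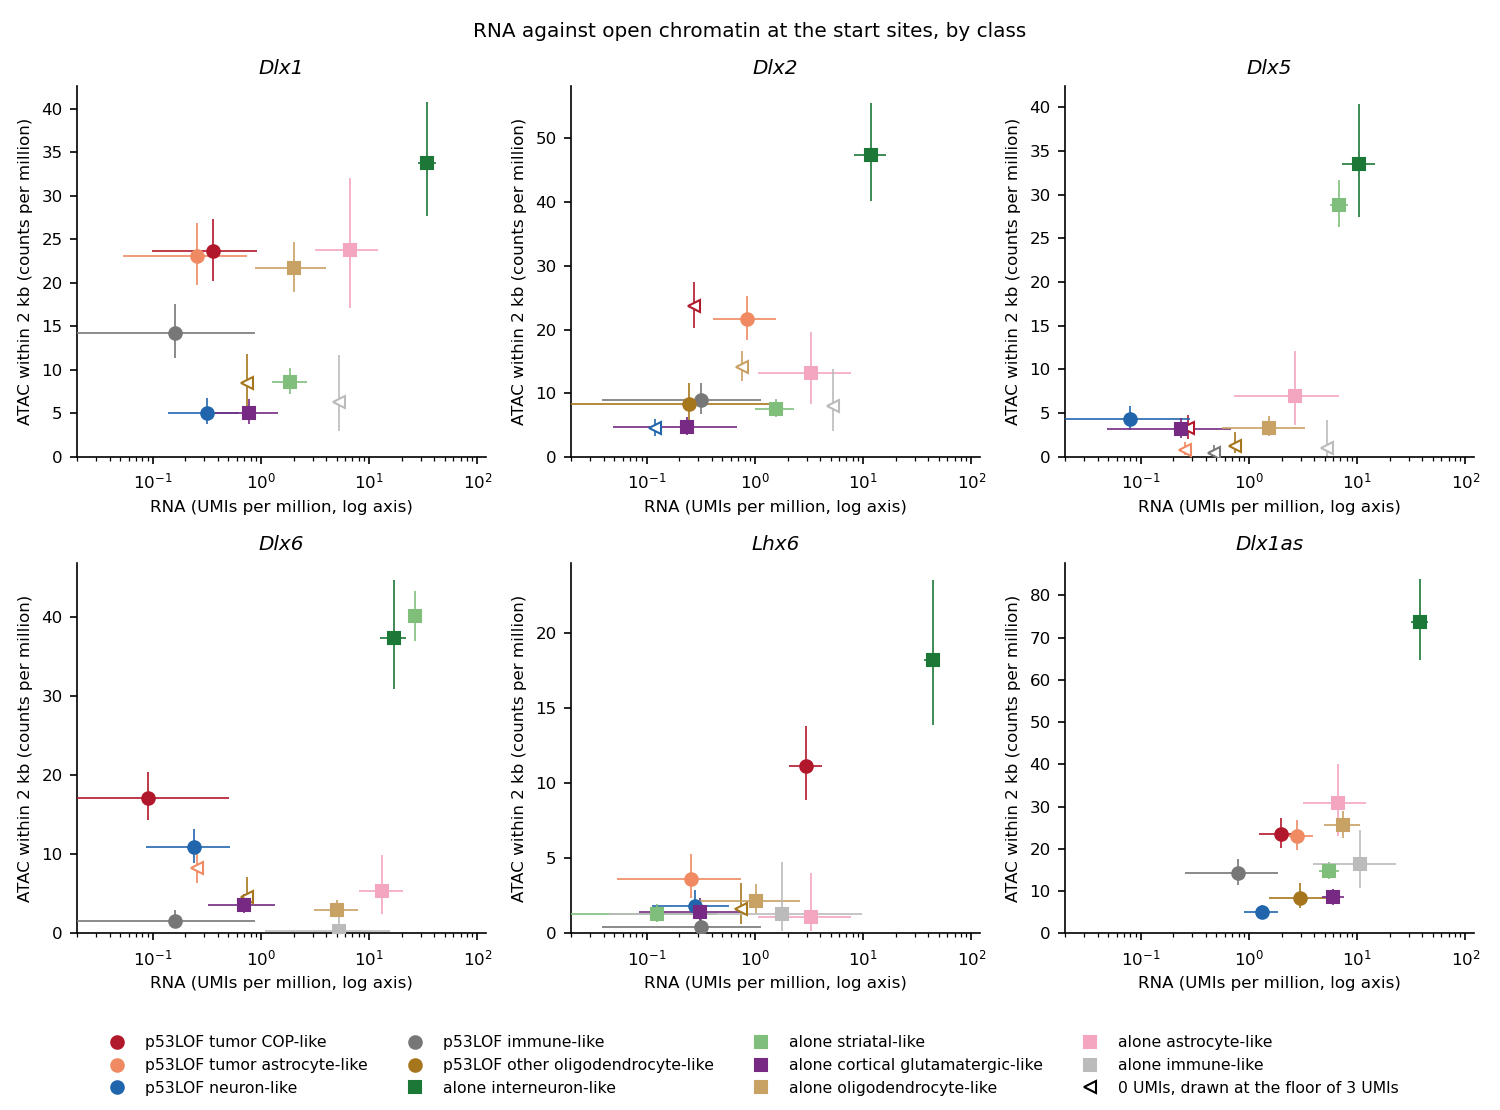
RNA (CPM, log axis) against ATAC CPM within 2 kb of the start sites (linear axis), with 1 panel each for Dlx1, Dlx2, Dlx5, Dlx6, Lhx6 and Dlx1as. Points are classes of nuclei, circles from Foxr2 p53LOF and squares from Foxr2 alone, bars are 95% intervals of counting error, and open triangles are classes with 0 UMIs drawn at the floor of 3 UMIs. Interneuron-like neurons of Foxr2 alone are high on both axes, while tumor glia have 23.4 and 22.6 ATAC CPM at Dlx1 and Dlx2 with 0.306 and 0.438 CPM.

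Among single Dlx genes, the higher accessibility of tumor glia over neurons lay at Dlx1 and Dlx2, the pair that acts first in ventral progenitors. Dlx1 had 23.4 [20.9, 26.0] ATAC CPM in tumor glia, 5.10 [3.77, 6.74] in neuron-like, 14.2 [11.4, 17.6] in immune-like and 8.51 [5.91, 11.9] in other oligodendrocyte-like nuclei. Dlx2 had 22.6 [20.3, 25.2], 4.47 [3.24, 6.03], 8.95 [6.72, 11.7] and 8.26 [5.71, 11.6] in the same order. For both genes the interval of tumor glia was clear of those of the other 3 classes. The log2 ratio of tumor glia to neuron-like nuclei was 2.20 [1.76, 2.66] at Dlx1 and 2.34 [1.88, 2.83] at Dlx2. In RNA, Dlx1 had 7 UMIs in tumor glia and 8 in neuron-like nuclei (log2 ratio -0.05 [-1.75, 1.61]). Dlx2 had 10 and 0 UMIs, 3.68-fold higher in tumor glia with the 0 set to a floor of 3 UMIs over the class. This fold leaves out the counting error of the 10 UMIs and is not a lower limit. All 10 Dlx2 UMIs were in astrocyte-like tumor nuclei (0.849 CPM [0.407, 1.56], in 9 nuclei), where the interval overlapped that of immune-like nuclei (0.318 CPM [0.0385, 1.15]).

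Dlx5 and Dlx6, which act later in the same neurons, were not clearly higher in tumor glia than in neurons. Dlx5 had 2.02 [1.36, 2.90] ATAC CPM in tumor glia and 4.32 [3.10, 5.85] in neuron-like nuclei, a log2 ratio of -1.09 [-1.83, -0.38], opposite in direction to Dlx1 and Dlx2. Within 10 kb it was -0.23 [-0.66, 0.21], an interval that holds 0. Dlx6 had 12.8 [11.0, 14.8] and 10.9 [8.89, 13.2], a log2 ratio of 0.24 [-0.12, 0.59]. Immune-like nuclei were lower than both, with 0.414 [0.0689, 1.33] at Dlx5 and 1.57 [0.738, 2.94] at Dlx6. The log2 ratio of tumor glia to immune-like nuclei was 2.29 [0.48, 4.95] at Dlx5 and 3.02 [2.09, 4.14] at Dlx6, against 0.71 [0.37, 1.07] at Dlx1 and 1.34 [0.92, 1.78] at Dlx2, so the split between the pairs held against neurons and not against immune-like nuclei. Dlx5 RNA had 0 UMIs in tumor glia, which allows up to 0.131 CPM, and 2 in neuron-like nuclei. Dlx6 RNA had 1 and 6 UMIs, so neither gene was measurable as RNA at this depth.

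Lhx6 was higher in tumor glia as a whole than in all neuron-like nuclei pooled, on both measures, though in RNA the COP-like cluster alone stood above these pooled neurons. It had 36 UMIs in tumor glia (1.58 CPM [1.10, 2.18]) and 7 in neuron-like nuclei (0.277 CPM [0.112, 0.572]), a log2 ratio of 2.51 [1.32, 3.92]. Astrocyte-like tumor nuclei had 0.255 CPM [0.0525, 0.744], a log2 ratio to neuron-like nuclei of -0.12 [-2.71, 2.01]. With each nucleus thinned to 1000 UMIs, 0.0842% [0.0102, 0.304] of tumor glia and 0% [0, 0.163] of neuron-like nuclei had a Lhx6 UMI, with overlapping intervals, and unthinned 0.936% and 0.265%. Its start sites held 7.41 [6.08, 8.95] and 1.82 [1.07, 2.90] ATAC CPM (log2 ratio 2.03 [1.29, 2.84]). In immune-like nuclei there were 2 Lhx6 UMIs and 0.414 [0.0689, 1.33] ATAC CPM. Lhx8 had 0 UMIs in tumor glia and 1 in neuron-like nuclei, with 5.59 [4.44, 6.95] and 4.53 [3.28, 6.08] ATAC CPM (log2 ratio 0.31 [-0.24, 0.87], an interval that holds 0).

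The antisense genes went opposite ways. Dlx1as had 55 UMIs in tumor glia (2.41 CPM [1.81, 3.13]) and 33 in neuron-like nuclei (1.31 CPM [0.900, 1.84]), a log2 ratio of 0.88 [0.23, 1.55]. Other oligodendrocyte-like nuclei had 2.94 CPM [1.52, 5.14], overlapping tumor glia. The only Dlx1as peak within 2 kb in this library is that of Dlx1, so their ATAC values are 1 measurement. Dlx6os1 had 2 UMIs in tumor glia and 32 in neuron-like nuclei (log2 ratio -3.86 [-6.96, -1.89]), and no peak within 2 kb.

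Of the members at 1 CPM or more in either class, 1 of 3 (Lhx6) was at least 2-fold higher in RNA in tumor glia, as were 30.4% of 16890 genes, and 1 of 3 (Dlx6os1) at least 2-fold lower, as were 20.7% of 16890 genes. In ATAC, 4 of 7 members (Dlx1, Dlx1as, Dlx2 and Lhx6) were at least 2-fold higher, against 12.5% of 20227 genes, and 1 of 7 (Dlx5) was 2-fold lower, against 11.5% of 20227 genes. Dlx1 and Dlx1as rest on the same peak here, and with it counted once 3 of 6 were higher. The median log2 ratio of ATAC was 2.03 over the 7 members, with that peak entering for both Dlx1 and Dlx1as, and -0.12 over all genes. Chromosomes 2, 3 (which holds Lhx8) and 6 took 0.955, 1.11 and 1.04 times as large a share of all ATAC counts in tumor glia as in neuron-like nuclei.

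**Figure D2:**
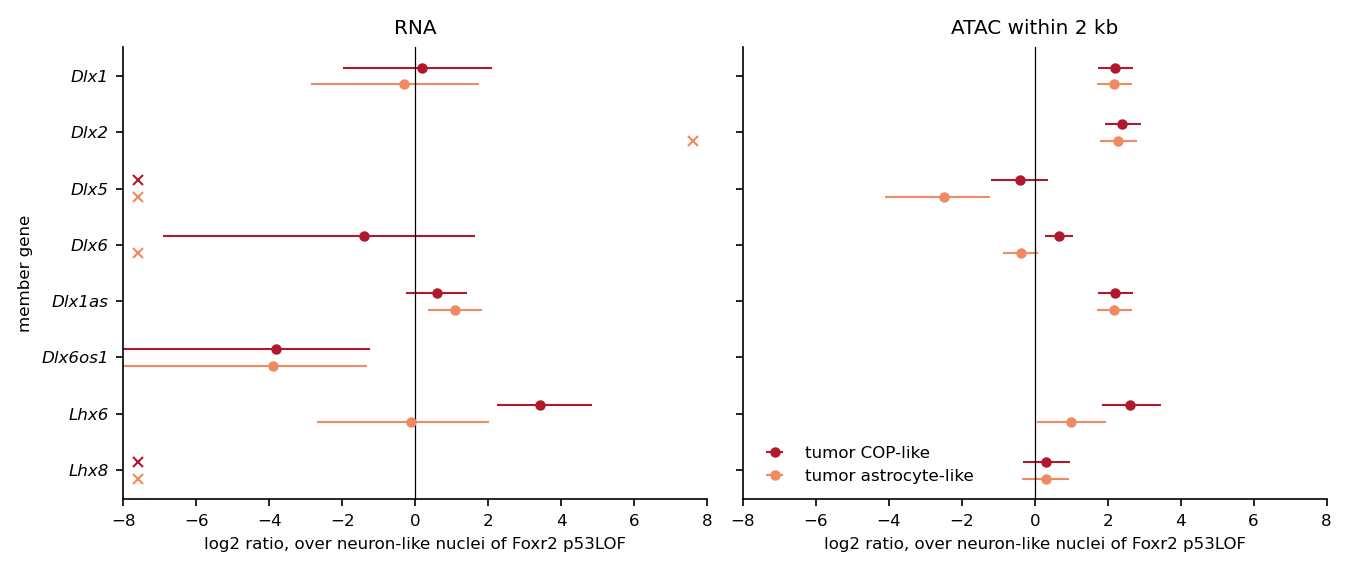
Log2 ratios of COP-like and astrocyte-like tumor nuclei, drawn as separate points, to neuron-like nuclei in Foxr2 p53LOF. They are given by member, for RNA and for ATAC within 2 kb, with 95% intervals of counting error. Crosses at the edges mark 0 counts in one class (left, 0 in tumor glia, right, 0 in neurons), and no point is drawn where both are 0 or no peak was called. ATAC at Dlx1, Dlx2 and Lhx6 lies right of 0 for both clusters, and Lhx6 RNA for the COP-like cluster only. ATAC at Dlx5 lies left of 0, with an interval that holds 0 for the COP-like cluster.

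The 2 clusters of tumor glia differed at Lhx6, Dlx6 and Dlx5, and at Dlx1 and Dlx2 no difference beyond counting error was found. Of the 36 Lhx6 UMIs, 33 were in COP-like (2.98 CPM [2.05, 4.19]) and 3 in astrocyte-like tumor nuclei (0.255 CPM [0.0525, 0.744]), a log2 ratio of 3.55 [1.88, 5.90]. ATAC at Lhx6 was 11.1 [8.85, 13.8] and 3.61 [2.36, 5.29] ATAC CPM, a log2 ratio of 1.62 [0.97, 2.32]. Both measures of Lhx6 were thus higher in the COP-like cluster. At Dlx6, ATAC was 17.2 [14.3, 20.4] and 8.33 [6.35, 10.7] (log2 ratio 1.04 [0.59, 1.51]), and at Dlx5 3.26 [2.09, 4.85] and 0.763 [0.265, 1.72] (log2 ratio 2.09 [0.72, 3.75]). The log2 ratio was 0.03 [-0.28, 0.35] at Dlx1, 0.13 [-0.19, 0.45] at Dlx2 and 0.02 [-0.64, 0.68] at Lhx8, with 0 inside each interval. In ATAC, 3 of 7 members were at least 2-fold higher in COP-like tumor nuclei, against 5.65% of 20046 genes. In RNA, 1 of 2 (Lhx6) was, against 12.1% of 15979 genes.

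Against the neurons, each cluster gave its own values. COP-like tumor nuclei had ATAC log2 ratios of 2.61 [1.85, 3.45] at Lhx6, 0.66 [0.27, 1.05] at Dlx6 and -0.41 [-1.20, 0.35] at Dlx5. Astrocyte-like tumor nuclei had 0.99 [0.06, 1.95], -0.38 [-0.87, 0.09] and -2.50 [-4.10, -1.21]. Only for the astrocyte-like cluster was the Dlx5 interval wholly below 0.

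The 33 Lhx6 UMIs of the COP-like cluster lay in 20 of 1216 nuclei. These had a median of 11800.5 UMIs, against 7434 in the others, and 5 of them had a vector count. The 8 neuron markers together stood at 706 CPM in these nuclei, 424 CPM in the other COP-like tumor nuclei and 12588 CPM in neuron-like nuclei, and their part in the Lhx6 level was not tested. Summed over all kinds of neurons, the neuron-like nuclei of that library had a lower Lhx6 CPM than the COP-like cluster. All of their Lhx6 UMIs lay in GABAergic neurons from outside the telencephalon. Tumor glia with (698) and without (1759) a vector count had a log2 ratio of 0.01 [-0.19, 0.21] for Dlx ATAC and 0.04 [-0.55, 0.61] for Lhx6 ATAC. Lhx6 had 10 and 26 UMIs (log2 ratio -0.29 [-1.51, 0.81]), and Dlx1as 11 and 44 (-0.91 [-2.01, 0.07]), with 0 inside all 4 intervals. Within the astrocyte-like cluster, Dlx1as had 5 UMIs with a vector count (1.33 CPM [0.430, 3.09]) and 28 without (3.50 CPM [2.32, 5.05]), at least 2-fold lower with a vector count, as were 4.77% of 15715 genes, with a ratio interval that only just left out 0.

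Peak by peak, 3 peaks held most of the Dlx1 and Dlx2 counts of tumor glia. The peak at the 3′ end of Dlx2, the first sequence shown, held 32.9 [28.9, 37.3] ATAC CPM in COP-like and 25.8 [22.2, 29.8] in astrocyte-like tumor nuclei. It held 3.797 [2.67, 5.24] in neuron-like, 6.63 [4.73, 9.02] in immune-like and 5.67 [3.60, 8.51] in other oligodendrocyte-like nuclei. The peak in the first part of Dlx1 (chr2:71529212-71530114) held 23.6 [20.2, 27.4], 23.1 [19.7, 26.9], 5.10 [3.77, 6.74], 14.2 [11.4, 17.6] and 8.51 [5.91, 11.9] in the same order, so immune-like nuclei came nearer to tumor glia there. The peak over the start of Dlx2 (chr2:71546219-71546974) held 17.9 [15.0, 21.2], 17.0 [14.1, 20.3], 3.22 [2.19, 4.58], 4.47 [2.95, 6.51] and 4.44 [2.63, 7.02]. The peak at the 3′ end of Dlx2 lies beyond 2 kb of a start site and enters the values within 10 kb, where Dlx2 had 58.0 [54.2, 62.1] in tumor glia and 11.2 [9.17, 13.5] in neuron-like nuclei.

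**Figure D3:**
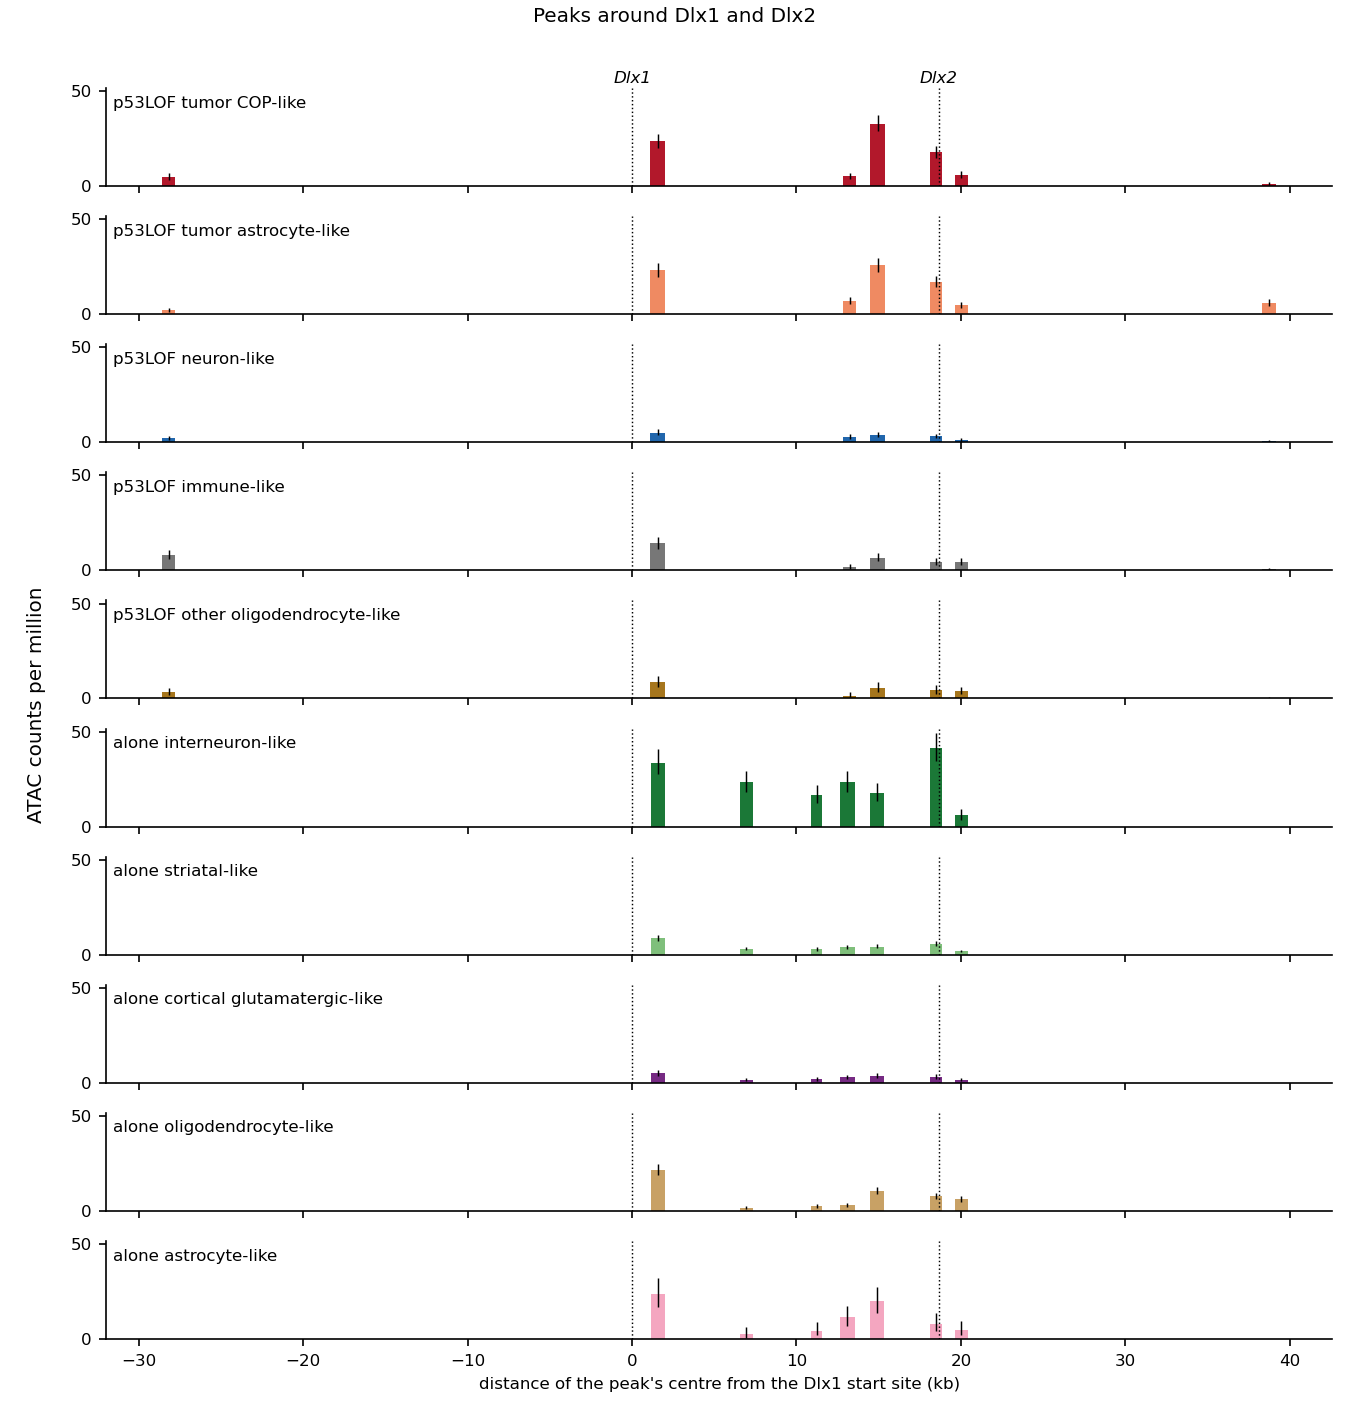
ATAC CPM in each peak of the Dlx1 and Dlx2 locus, by distance from the start of Dlx1 in kb, with 1 row per class of nuclei. Bar widths are peak lengths and dotted lines mark the start sites. COP-like tumor nuclei reach 32.9 at the 3′ end of Dlx2, and interneuron-like neurons reach 41.5 over the start of Dlx2.

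Interneuron-like neurons of Foxr2 alone had another order of peaks. The peak over the start of Dlx2 was their highest, at 41.5 [34.8, 49.2], followed by that of Dlx1 at 33.8 [27.7, 40.7], while the peak at the 3′ end of Dlx2 had 17.7 [13.4, 23.0]. The second sequence shown, between Dlx1 and Dlx2, lies in a peak with 23.5 [18.5, 29.4] in interneuron-like and 4.10 [3.16, 5.23] in striatal-like neurons. The overlapping peak of Foxr2 p53LOF (chr2:71540964-71541749) had 5.09 [3.59, 6.999] in COP-like and 6.87 [5.09, 9.07] in astrocyte-like tumor nuclei. Peaks in an intron of Dlx1as (chr2:71534690-71535457) and between the genes (chr2:71538997-71539690) held 23.3 [18.4, 29.3] and 16.6 [12.5, 21.7] in interneuron-like neurons and were not called in Foxr2 p53LOF. Glia of Foxr2 alone shared the Dlx1 peak, at 21.7 [19.0, 24.8] in oligodendrocyte-like and 23.8 [17.2, 32.1] in astrocyte-like nuclei. Astrocyte-like nuclei also shared the peak at the 3′ end of Dlx2, at 19.8 [13.9, 27.5].

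At Dlx5 and Dlx6 no peak of tumor glia came near these levels. The highest lay over the start of Dlx6 (chr6:6863319-6864127), with 8.68 [6.69, 11.1] in COP-like tumor, 3.05 [1.91, 4.62] in astrocyte-like tumor and 5.10 [3.77, 6.74] in neuron-like nuclei. In Foxr2 alone, the peak over the start of Dlx5 (chr6:6881628-6882440) held 33.4 [27.4, 40.4] in interneuron-like and 28.8 [26.2, 31.6] in striatal-like neurons. The peak of the third sequence shown held 21.2 [16.4, 26.8], 15.7 [13.8, 17.8] and, in cortical glutamatergic-like neurons, 1.72 [0.999, 2.75]. The peak of the fourth held 19.4 [14.9, 24.9], 14.3 [12.5, 16.3] and 1.51 [0.847, 2.50]. Both were higher in the 2 GABAergic classes than in cortical glutamatergic-like neurons.

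**Figure D4:**
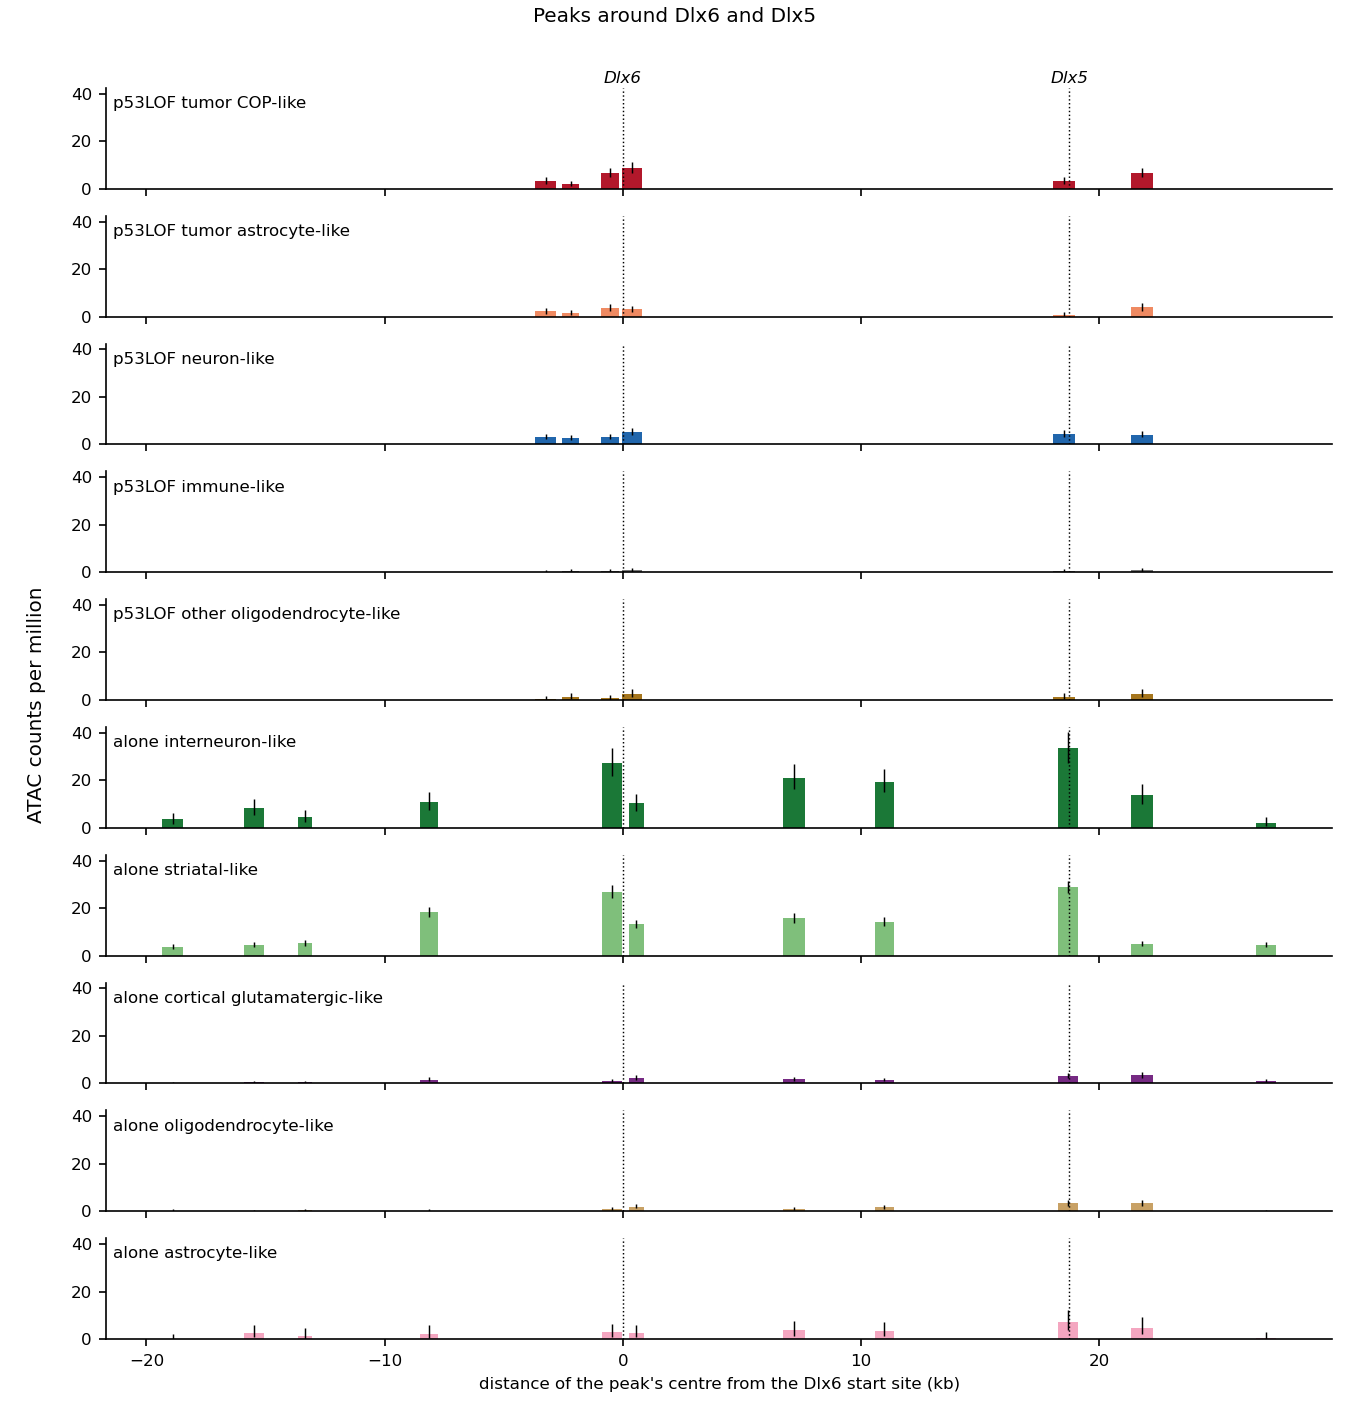
ATAC CPM in each peak of the Dlx5 and Dlx6 locus, by distance from the start of Dlx6 in kb, with 1 row per class of nuclei. Bar widths are peak lengths and dotted lines mark the start sites. Interneuron-like and striatal-like neurons reach 33.4 and 28.8 over the start of Dlx5, and tumor nuclei reach 8.68 over the start of Dlx6.

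At Lhx6, the peak over the start (chr2:36104927-36105713) held 11.1 [8.85, 13.8] in COP-like tumor nuclei, and its counterpart in Foxr2 alone 18.2 [13.8, 23.5] in interneuron-like neurons. A peak over a coding exon inside the gene (chr2:36091053-36091930) held 9.91 [7.76, 12.5], and its counterpart 12.4 [8.89, 16.9]. The third peak, in an intron (chr2:36099530-36100432), held 6.45 [4.74, 8.56] in COP-like tumor and 1.404 [0.758, 2.38] in neuron-like nuclei and was not called in Foxr2 alone replicate 1. COP-like tumor nuclei thus had counts at each Lhx6 peak, and interneuron-like neurons at both of theirs. The peak list of Foxr2 alone replicate 2 had peaks within 2 kb of Dlx1, Dlx2, Dlx5, Dlx6, Dlx1as and Dlx6os1, and none within 10 kb of Lhx6 or Lhx8.

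In Foxr2 alone, RNA levels of the members were highest in interneuron-like or striatal-like neurons. Of 4247 neuron-like nuclei, 499 were interneuron-like, 2344 striatal-like and 1308 cortical glutamatergic-like. Interneuron-like neurons had the highest RNA level of 7 members among the named classes of both libraries, with 34.4 CPM [28.2, 41.5] of Dlx1, 11.8 CPM [8.29, 16.2] of Dlx2 and 10.5 CPM [7.23, 14.7] of Dlx5. Dlx1as stood at 37.9 CPM [31.4, 45.3], Dlx6os1 at 204 CPM [188, 220.4], Lhx6 at 43.9 CPM [36.9, 51.9] and Lhx8 at 29.6 CPM [23.9, 36.3]. The Lhx8 level includes a subcluster of 17 nuclei led by Slc5a7, the choline transporter, given below. The Dlx1, Dlx2 and Dlx6os1 levels include a subcluster of 68 nuclei where these genes were highest, also given below. Dlx6 was the exception, at 16.9 CPM [12.6, 22.1] in interneuron-like and 26.3 CPM [23.9, 29.0] in striatal-like neurons. Striatal-like neurons, GABAergic projection neurons, had 6.85 CPM [5.63, 8.25] of Dlx5 and 35.6 CPM [32.8, 38.7] of Dlx6os1, with 1.87 CPM [1.26, 2.67] of Dlx1, 1.56 CPM [1.01, 2.30] of Dlx2 and 0.125 CPM [0.0151, 0.450] of Lhx6. Cortical glutamatergic-like neurons, of dorsal origin, had 1.95 CPM [1.26, 2.88] of the 4 coding Dlx genes together and 0.312 CPM of Lhx6, from 4 UMIs. Their Dlx1as level, 6.01 CPM [4.75, 7.52], overlapped that of striatal-like neurons, 5.54 CPM [4.45, 6.82]. Immune-like nuclei of Foxr2 alone held only 567270 UMIs. Of these 423 nuclei, 5 had a Dlx1as UMI, 3 a Dlx6 UMI and 0 a Dlx1 or Dlx2 UMI. With so few UMIs, neither these Dlx1as levels nor the Dlx1 and Dlx2 levels of striatal-like neurons could be set above background.

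Accessibility divided the pairs in the same way. Dlx1 and Dlx2 had 33.8 [27.7, 40.7] and 47.4 [40.2, 55.6] ATAC CPM in interneuron-like and 8.64 [7.25, 10.2] and 7.59 [6.29, 9.08] in striatal-like neurons. Dlx5 and Dlx6 had 33.4 [27.4, 40.4] and 37.3 [31.0, 44.6] in interneuron-like and 28.8 [26.2, 31.6] and 40.1 [37.0, 43.3] in striatal-like neurons, with overlapping intervals. Lhx6 had 18.2 [13.8, 23.5] and 1.27 [0.776, 1.96], and Lhx8 had no peak within 10 kb in this library although interneuron-like neurons held 93 Lhx8 UMIs. Over cortical glutamatergic-like neurons, 8 of 8 members were at least 2-fold higher in RNA in interneuron-like neurons (13.4% of 16648 genes) and 7 of 7 in ATAC (7.98% of 19873 genes). In striatal-like neurons 5 of 6 were higher in RNA (10.1% of 16374 genes) and 3 of 7 in ATAC (5.64% of 19817 genes). In RNA, Lhx6 and other members passed the limit of 1 CPM only through interneuron-like neurons and could not be called lower there.

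Within the interneuron-like neurons the members marked different subclusters. A subcluster of 68 nuclei, at a low median of 1417.5 UMIs, had 268 CPM of Dlx1, 86.8 of Dlx2 and 1326 of Dlx6os1, with 0 Lhx6 UMIs. Its leading genes included Dlx6os1, Sox2ot, Igfbpl1, Dlx1, St8sia2, Sox1ot and Mex3a. One of 171 nuclei led by Sox6, Sst and Npy among others had 64.1 CPM of Lhx6, and one of 82 nuclei with Nxph1 and Kit among its leading genes had 69.0 of Lhx6 and 57.5 of Lhx8. One of 17 nuclei led by Slc5a7, the choline transporter, had 261 CPM of Lhx8. Lhx6 and the Dlx1 and Dlx2 pair thus had their highest levels in different subclusters.

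**Figure D5:**
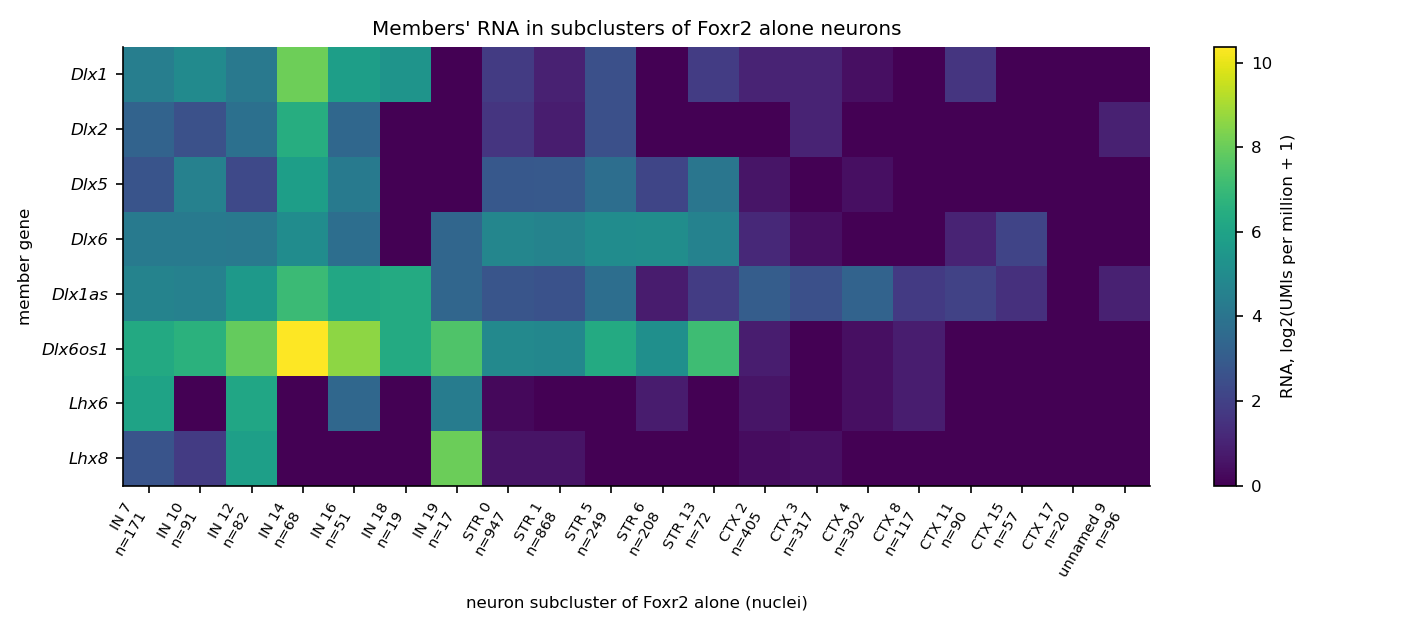
Heat map of log2(CPM + 1) of the members in the neuron subclusters of Foxr2 alone, labelled IN (interneuron-like), STR (striatal-like) and CTX (cortical glutamatergic-like). Dlx1, Dlx2 and Dlx6os1 are highest in an interneuron-like subcluster of 68 nuclei with 0 Lhx6 UMIs.

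Set in order over both libraries, accessibility of Dlx1 was highest in interneuron-like neurons, at 33.8 [27.7, 40.7]. Next came a group whose intervals overlapped, astrocyte-like nuclei of Foxr2 alone (23.8 [17.2, 32.1]), COP-like (23.6 [20.2, 27.4]) and astrocyte-like tumor nuclei (23.1 [19.7, 26.9]) and oligodendrocyte-like nuclei of Foxr2 alone (21.7 [19.0, 24.8]). The interval of astrocyte-like nuclei of Foxr2 alone also overlapped that of interneuron-like neurons. Cortical glutamatergic-like neurons had 5.10 [3.79, 6.71], close to the neuron-like nuclei of Foxr2 p53LOF. Immune-like and other oligodendrocyte-like nuclei of Foxr2 p53LOF, at 14.2 [11.4, 17.6] and 8.51 [5.91, 11.9], lay between, the latter with an interval that overlaps that of the cortical neurons. Oligodendrocyte-like nuclei of Foxr2 alone, at 21.7 [19.0, 24.8] and 14.1 [11.9, 16.6] ATAC CPM at Dlx1 and Dlx2, had 8 and 0 UMIs of these genes among 3931320 UMIs. In RNA, 4 of 5 members were at least 2-fold higher there than in cortical glutamatergic-like neurons (21.2% of 16840 genes). These were Lhx6, Dlx1, Dlx6 and Dlx5. The ATAC log2 ratio of these nuclei to cortical glutamatergic-like neurons was 2.09 [1.65, 2.56] at Dlx1, 1.61 [1.12, 2.12] at Dlx2 and 0.61 [-0.41, 1.69] at Lhx6. In Foxr2 p53LOF, the log2 ratio of other oligodendrocyte-like to neuron-like nuclei was 0.74 [0.07, 1.397] at Dlx1 and 0.89 [0.19, 1.57] at Dlx2, short of 2-fold. Immune-like nuclei, which are not glia of the neural lineage, had 1.48 [0.96, 2.02] at Dlx1 against the same neurons, so higher ATAC at Dlx1 than in these neurons was not particular to tumor glia. Astrocyte-like nuclei of Foxr2 alone, which had the GFP level given above, held 25.8 CPM [18.3, 35.2] of Dlx RNA with 2673 CPM of the 8 neuron markers, against 496 CPM in tumor glia, and the part of neuronal RNA or of electroporated nuclei in that level was not tested.

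Accessible start sites with little RNA were found at many genes. Of the genes with 10 or more ATAC CPM within 2 kb, 14.4% of 15062 had under 1 CPM of RNA in tumor glia, among them 3 of 4 members (Dlx1, Dlx2 and Dlx6). In interneuron-like neurons it was 15.2% of 14834 and 0 of 7 members, and in oligodendrocyte-like nuclei of Foxr2 alone 13.8% of 12924 and 1 of 3 (Dlx2). These limits were set after the values were seen. The log2 ratio of tumor glia to interneuron-like neurons was -6.81 [-8.16, -5.72] in RNA and -0.53 [-0.85, -0.21] in ATAC at Dlx1, and -4.80 [-5.37, -4.26] and -1.30 [-1.77, -0.81] at Lhx6. In RNA, only Lhx6 and Dlx1as reached 1 CPM in tumor glia, so the other members could not be called higher there. Of the members, 8 of 8 were at least 2-fold lower in RNA (27.9% of 17486 genes) and 5 of 6 in ATAC (9.64% of 18633 genes). Within 10 kb it was 4 of 7 in ATAC (10.7% of 22833 genes), where Dlx1 was at least 2-fold lower and Dlx2, Dlx1as and Lhx6 were no longer 2-fold lower (log2 ratios of -0.86 [-1.04, -0.67] at Dlx2 and -0.55 [-0.98, -0.10] at Lhx6). Peaks were called apart in each library, and those within 2 kb covered 903 and 2343 bases at Dlx1as and 2290 and 1512 at Dlx6 in Foxr2 p53LOF and Foxr2 alone. Per covered kb, 4 of 6 members (Dlx2, Dlx5, Dlx6 and Lhx6) were at least 2-fold lower in tumor glia, and Dlx1as, at 25.9 and 31.5 ATAC CPM per kb (log2 ratio -0.28), was not. Within 10 kb 4 of 7 were (Dlx5, Dlx6, Dlx6os1 and Lhx6), so the calls of Dlx1 and Lhx6 there turned on the bases covered (log2 ratios per covered kb -0.42 and -1.45). Class, library and genotype cannot be told apart in this comparison.

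The neurons of the libraries were of different kinds. Those of Foxr2 p53LOF were by markers mostly Slc17a6 glutamatergic-like (926 nuclei), GABAergic from outside the telencephalon (606) and dopamine-like (329). A subcluster of 52 nuclei had 9 of 12 interneuron markers, with Nox4, Sst, Meis2, Penk, Pax7 and Ebf2 among its leading genes. It held 0 UMIs of every member in 513963 UMIs, too few to show that low levels were absent. Over all neuron-like nuclei, 8 of 8 members were at least 2-fold lower in RNA in Foxr2 p53LOF than in Foxr2 alone (24.0% of 16926 genes) and 4 of 6 in ATAC (3.85% of 18595 genes). In RNA, the coding Dlx genes, Lhx6 and Lhx8 reached 1 CPM only in Foxr2 alone and so could not be called higher in Foxr2 p53LOF. The Dlx log2 ratio was -5.33 [-6.15, -4.63] in RNA and -1.45 [-1.65, -1.26] in ATAC, with 5647 covered bases in Foxr2 p53LOF and 4709 in Foxr2 alone, and -1.71 per covered kb, from 4.38 and 14.4 ATAC CPM per kb. Per covered kb 4 of 6 members were again 2-fold lower within 2 kb, with Dlx1 in the place of Dlx1as. Within 10 kb, 6 of 7 members were lower (6.33% of 22829 genes), but 3 of 7 per covered kb (Dlx5, Dlx6 and Dlx6os1). By gene, the summed ATAC log2 ratio within 2 kb was -2.21 [-2.70, -1.76] at Dlx5, -0.99 [-1.45, -0.55] at Dlx1 and -0.82 [-1.64, -0.07] at Lhx6. Genotype, library and the kinds of neurons cannot be told apart here. Within Foxr2 p53LOF, 7 of the 7 neuronal Lhx6 UMIs were in GABAergic neurons from outside the telencephalon, and 21 of the 32 Dlx6os1 UMIs in Slc17a6 glutamatergic-like neurons.

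Other genes of ventral forebrain development were mixed when tumor glia were set against neurons of the same library (CPM given in that order). Over all genes, 30.4% were at least 2-fold higher and 20.7% lower in RNA, and 12.5% and 11.5% in ATAC, beside which the counts of each list stand. Nkx2-1 (0.175 and 5.67), which induces Lhx6, was at least 2-fold lower in RNA in tumor glia. In ATAC, 2 of 5 upstream factors (Gsx1 and Gsx2) were higher and 1 (Nkx2-1) lower, with a median log2 ratio of 0.78 against -0.12 over all genes. Gsx1 had 0 UMIs in both classes with 8.51 and 2.03 ATAC CPM. Of 10 partners and later factors, 6 were higher in RNA and 2 lower (median 1.49, all genes 0.36). Among the higher ones were Sox6 (1237 and 73.4), Zeb2 (1007 and 72.2), Meis2 (433 and 56.0), Prox1 (129 and 18.5) and Maf (21.6 and 10.5), of which Sox6 and Zeb2 also act in the oligodendrocyte lineage. The lower ones were Sp9 (0.131 and 1.98) and Npas1 (0.832 and 10.1).

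In RNA, more genes of GABA signalling and interneuron products were lower than higher. Of 4 GABA genes, 0 were at least 2-fold higher and 2 lower (median -1.97), Gad1 (9.10 and 74.5), a GABA-synthesizing enzyme, and Slc32a1 (1.05 and 29.97), the vesicular GABA transporter. Of 8 interneuron products, 5 were lower, Nxph1 (211 and 612) and Sst (0.832 and 17.0) among them, and 2 higher, the chemokine receptors Ackr3 (10.5 and 0.714) and Cxcr4 (2.89 and 0.198), with a median of -1.38. Of the 6 interneuron products with ATAC within 2 kb, which leaves out Sst and Vip, 2 were higher (Ackr3 and Cxcr4) and 0 lower, with a median of 0.36. Of these 6, Pvalb alone differed in direction between the measures, at 1.18 and 5.39 CPM and 26.9 and 23.0 ATAC CPM. Of the 4 GABA genes 0 were higher in ATAC and 1 (Slc32a1) was lower (median -0.49). Of 6 dorsal factors, 2 were higher in RNA, Pax6 (33.0 and 6.98) and Eomes (3.68 and 0.0396), and 3 lower (median -1.90). All 6 glial factors were higher in RNA and in ATAC, Sox10 (104 and 2.77) and Olig2 (42.1 and 2.26) among them, with medians of 3.39 and 2.56.

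Over 19 clusters of at least 100 nuclei, the genes most like Lhx6 in RNA, by Pearson r of log2(CPM + 1), were Cort (0.876), Akr1c18 (0.839), Nxph2 (0.788), Sox5os3 (0.782) and 4930488N15Rik (0.778). For Dlx6os1 they were Dlx5 (0.938), 8030451O07Rik (0.932), Arhgap40 (0.916), Grip1os1 (0.913) and Grip1os2 (0.900). For the sum of the coding Dlx genes they included Tac1 (0.908), Rpp25 (0.897), Bex4 (0.896) and Sp9 (0.893). The clusters share 2 libraries and their depths, and 17269 genes were compared.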

How the data were processed

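Nuclei of 2 libraries were analysed from the deposited matrices, which hold UMI counts per gene and ATAC counts per peak; per the labels and methods, the authors made them with Cell Ranger ARC 2.0.0 on mm10 with vector sequences added. The peak list of the third library was also used. There were 0 columns of other samples. ATAC counts were mostly even (80.7% and 82.9%), as when both ends of a fragment are counted, so their intervals were computed on counts divided by 2. Nuclei with at least 400 genes, 400 fragments in peaks (peak counts divided by 2) and at most 5% mitochondrial UMIs, within upper limits, were kept, and 353 and 540 doublets (4.05% and 6.10% of nuclei) called by Scrublet were removed. Clusters came from scanpy 1.11.5 (2000 variable genes, 30 components, 20 neighbours, Leiden resolution 0.5), without the 8 members or the vectors, and were named where at least 3 markers were 2-fold higher. Glia-like clusters of Foxr2 p53LOF with at least 3 times the vector share of immune-like nuclei were called tumor glia. UMIs and ATAC counts were summed per class. Intervals of levels are exact Poisson, those of shares Clopper-Pearson and those of ratios conditional binomial, all at 95% and for counting error only. The floor for 0 counts was 3 counts. Between libraries, ATAC was also compared per covered kb of peaks. Genes at 1 CPM or more in either class were compared by a 2-fold limit. A gene that reached that level in a single class could be called only in the direction of that class. The 8 members, and the genes of fixed pathway lists that differed most at 5 CPM or more or that are named for a count, are given by name, with the 5 genes most like Lhx6, Dlx6os1 and the Dlx sum. Gsx1, Sp9, Eomes and Cxcr4, below 5 CPM in both classes, were named after their values were seen. Some genes that the rule covers are not reported here. The members and lists were chosen with earlier results of these data known. The summing and ratio steps were tested on simulated data.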

Additional observations from a re-analysis of the deposited data

How the results depend on the processing

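No paired analysis was possible because the counts of 1 library per genotype were analysed here and no test was made, and for the same reason no library could be left out. Higher summed ATAC of the 4 coding Dlx genes in tumor glia than in neuron-like nuclei kept its direction under all 9 alternatives (log2 ratio 1.21 to 1.47), as did ATAC at Lhx6 (1.61 to 2.13, 9 alternatives) and Lhx6 RNA (2.24 to 2.62, 7 alternatives). For Dlx RNA the ratio ranged from 0.05 to 0.58 over 7 alternatives, and against immune-like nuclei from 0.17 to 1.65. The last, by UMIs per nucleus [0.04, 3.67], left out 0 but does not correct for the depth of the classes. No result reversed. The Dlx ATAC ratio of neuron-like nuclei between the libraries (-1.45) was -1.73 without halving the counts for the upper limits, -1.71 over the total of promoter peaks, -1.77 as a share of nuclei, -1.74 within 10 kb and -1.71 per covered kb, an alternative chosen after the data were seen, under which members 2-fold lower within 10 kb fell from 6 to 3. That of tumor glia to immune-like nuclei (1.27) was 1.69 as a share of nuclei and 1.59 within 10 kb. Members at least 2-fold higher in RNA in tumor glia numbered 2 without halving for the limits and 2 with no minimum level, and 3 were lower with no minimum level. Unthinned, the share of nuclei with a Dlx UMI was 0.651% in tumor glia, 0.486% in neuron-like nuclei and 34.5% in interneuron-like neurons (thinned, 9.48% [7.03, 12.4]). Dlx5 ATAC was -0.23 within 10 kb and -0.67 [-1.37, 0.006] as a share of nuclei, both intervals holding 0. Intervals that held 0 were clear of it for Dlx6 ATAC as a share of nuclei (0.76 [0.41, 1.12]) and by peak centre (0.44 [0.04, 0.84]) and for Lhx8 ATAC as a share of nuclei (0.67 [0.14, 1.22]). The causes of these shifts were not tested. Depth limits what can be said of RNA: the intervals of Dlx CPM in tumor glia and neurons of Foxr2 p53LOF overlapped that of immune-like nuclei.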
